A study of Mus musculus with 8 samples.

Results

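The Wnt module described here holds 52 protein-coding genes, out of 42256 gene identifiers in the count table, measured in mouse kidney after aristolochic acid injury. They were chosen by name, with earlier results of these data known. The module takes every gene called Wnt, Fzd, Sfrp or Dkk plus a number, together with Axin2, Lef1, Tcf7, Nkd1, Nkd2, Notum, Lgr5, Rnf43, Znrf3, Wif1, Lrp5, Lrp6, Ccn4 (also known as Wisp1), Myc and Ccnd1. The 8 libraries were made from frozen kidneys of adult male mice on a mixed 129S1/Sv x C57BL/6 background, 4 labelled CDH11-/- and 4 labelled CDH11+/+. Both groups were given aristolochic acid, a plant toxin that damages the proximal tubule, at 3 mg/kg in 5 daily injections, and kidneys were taken 2 weeks later. No uninjured kidney is part of the comparison, so the response of these genes to the toxin itself cannot be read from it. The sources used here do not give the targeted allele, the litters or exact ages, and the series title names another injury model (Unx/AngII); the labels were followed.

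Wnt proteins are secreted, lipid-modified ligands that bind Frizzled receptors and the co-receptors LRP5 and LRP6. In the canonical branch this keeps β-catenin from being destroyed, and β-catenin then switches on target genes with the DNA-binding partners TCF and LEF. Secreted inhibitors of the SFRP, Dickkopf and WIF kinds act outside the cell, and several targets, such as Axin2, Nkd1, Rnf43 and Znrf3, feed back to damp the signal. In kidney, Wnt9b and Wnt4 are known for inducing nephrons during development, and renewed Wnt and β-catenin activity is known from injured and scarring adult kidney. The targeted gene, Cdh11, makes cadherin-11, which holds mesenchymal cells together and, like other classical cadherins, binds β-catenin inside the cell.

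Libraries held 10675309 to 18539479 counts. Cdh11 itself did not fall under the label CDH11-/-, where it averaged 102.7 ± 14.1 CPM (counts per 1000000, scaled by edgeR's TMM factors), against 63.6 ± 8.14 CPM under the label CDH11+/+ (SD, n = 4 per label). Its log2 fold change was 0.69 in edgeR (adjusted p = 0.0249) and 0.26 in the authors' normalized values (limma, adjusted p = 0.524), so the genotypes are given as labelled and every direction is that of the labels. Without the allele, counts per gene cannot check the deletion itself. The library labelled CDH11+/+ replicate 1 stood apart from the other 7 on the second principal component (-41.0, where the others lay between -9.92 and 26.1), and results are therefore also given without it. Markers of the proximal tubule were present in every library. In bulk tissue, fewer cells of a type and less RNA per cell cannot be told apart.

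Of the 52 genes, 40 passed the filter on low counts and were tested, and 0 of the 40 passed the test between the labelled genotypes (edgeR's quasi-likelihood test, with p-values adjusted by Benjamini-Hochberg over 15852 genes and a threshold of 0.05, which 0.725% of them passed). At an unadjusted p under 0.05 there were 6 (Nkd1, Dkk3, Lrp6, Wnt7b, Fzd1 and Wnt9a), 15.0% of the 40 tested, beside 14.4% of all genes. In DESeq2 2 genes, Nkd1 and Dkk3, passed and were higher in the libraries labelled CDH11-/-, against a background of 1.31% of genes called higher. In limma-voom with quality weights 3 passed and were higher, Nkd1, Dkk3 and Fzd1, against 2.04% of genes. The same 3 genes passed in edgeR without CDH11+/+ replicate 1, where 3.06% of all genes were called higher. Nkd1 and Dkk3 also passed with 1 surrogate variable (1.56% of genes higher) and at an adjusted p under 0.1 (0.946%). The direction of the module leaned one way with small values: 28 of 40 genes (70.0%) had a positive log2 fold change, beside 47.6% of all genes, and the median was 0.15, beside -0.01 for all genes tested. The groups overlapped by library. The median log2 deviation of the 40 genes from their own means was 0.12, 0.01, 0.09 and 0.07 in CDH11-/- replicates 1 to 4. In CDH11+/+ replicates 1 to 4 it was 0.05, -0.14, -0.07 and -0.06. By CPM, in 2 genes every library labelled CDH11-/- lay above every library labelled CDH11+/+ (3.59% of all genes), and in 1 gene, Lrp6, every one lay below (3.74% of all genes).

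**Figure D1:**
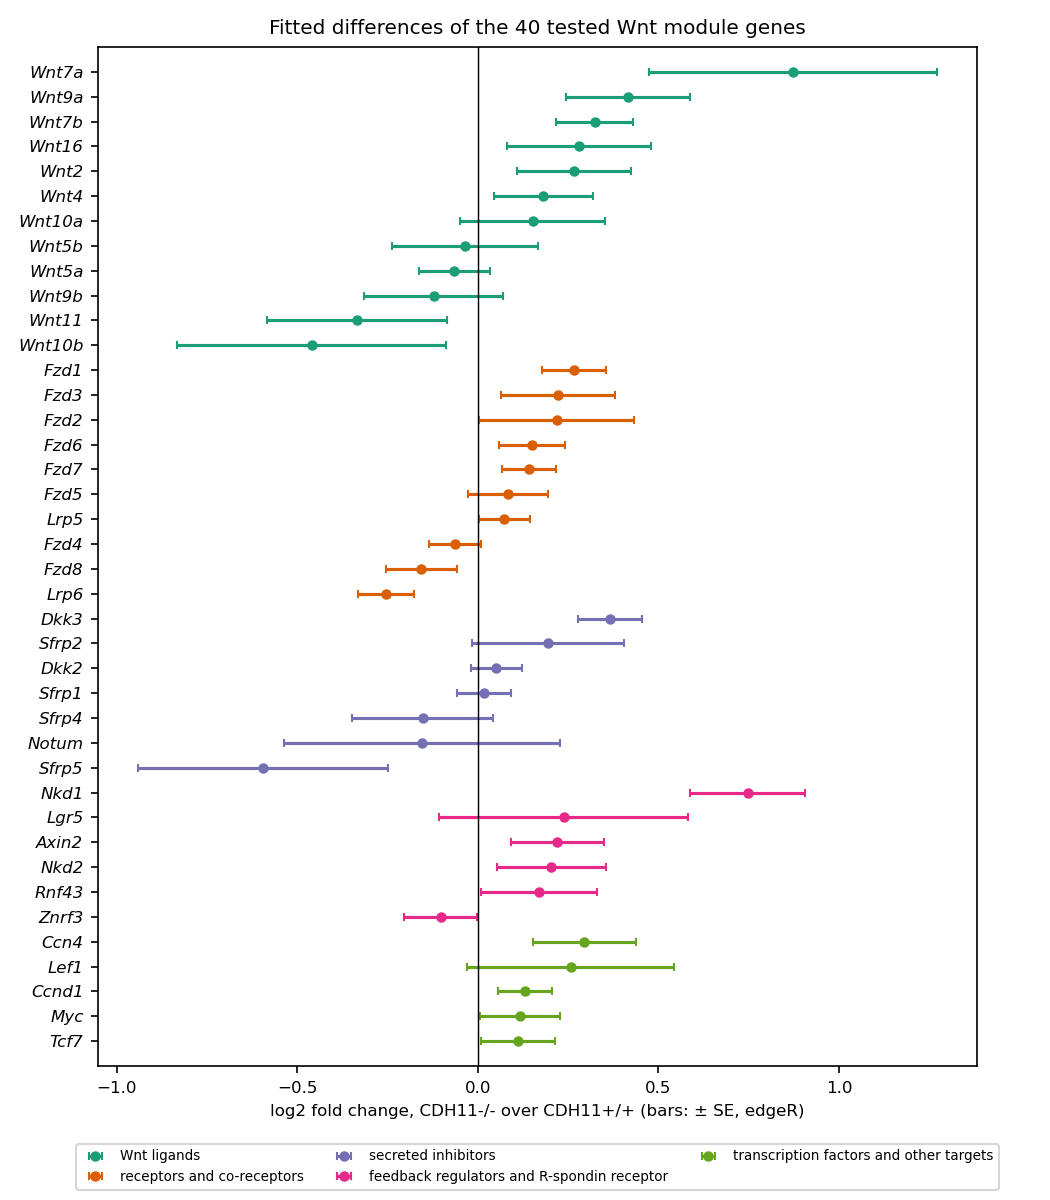
Log2 fold change of the 40 tested genes, libraries labelled CDH11-/- over CDH11+/+, with bars of ± 1 SE from edgeR; colours mark the role of each gene. Of the 40 points 28 lie right of 0, Nkd1 stands at 0.75 with an SE of 0.16, and the wide bars belong to genes of few counts such as Wnt7a.

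A few sequences are shown because they bear on the targets of the pathway. Nkd1 and Axin2 are the feedback targets most often used as a readout of β-catenin, and Nkd1 is the gene on which the results below turn, so their promoter windows are given (250 bases before to 50 after the RefSeq start, GRCm38.p6, plus strand, chr8:88527383-88527682 for Nkd1 and chr11:108920099-108920398 for Axin2). The start that RefSeq gives for Nkd1 lies inside the gene as GENCODE draws it. Both windows were searched on either strand for CTTTGAT, a core of the TCF and LEF motif, and neither holds these letters, so no base is in capitals.
Nkd1: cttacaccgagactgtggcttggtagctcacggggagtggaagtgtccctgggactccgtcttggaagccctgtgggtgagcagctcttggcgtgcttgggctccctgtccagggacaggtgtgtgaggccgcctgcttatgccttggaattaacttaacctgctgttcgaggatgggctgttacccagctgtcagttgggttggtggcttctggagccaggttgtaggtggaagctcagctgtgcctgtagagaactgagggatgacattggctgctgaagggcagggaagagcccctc
Axin2: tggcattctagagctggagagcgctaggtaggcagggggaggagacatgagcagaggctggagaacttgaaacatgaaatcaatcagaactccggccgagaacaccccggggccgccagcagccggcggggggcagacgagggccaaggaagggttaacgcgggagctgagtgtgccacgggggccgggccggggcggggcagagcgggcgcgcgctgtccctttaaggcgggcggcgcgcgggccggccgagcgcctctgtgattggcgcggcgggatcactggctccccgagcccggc

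RefSeq promoters were found for 32 of the 52 genes, 40 windows in all, and 2 of the 40 (5.0%) held CTTTGAT on one strand or the other, beside 3.73% of all 32851 windows of the table. They belong to ligands, Wnt5b and Wnt11, and are shown with 27 bases each and the motif in capitals. The Wnt5b stretch (chr6:119449441-119449467, minus strand) has its match starting 71 bases before the start, and the Wnt11 stretch (chr7:98835051-98835077, plus strand) has the reverse complement starting 51 bases before it. Neither gene passed the test, with log2 fold changes of -0.04 ± 0.20 for Wnt5b and -0.33 ± 0.25 for Wnt11 (SE).
Wnt5b: gtaagtctctCTTTGATctgctccctg
Wnt11: acgtgggcggATCAAAGcgacggtccg

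Among the 19 ligands, levels were low and uneven. Per length (CPM per kb of merged exons), Wnt7b, a ligand of the collecting duct that is needed to form the renal medulla, was the highest at 8.17 ± 1.20 CPM per kb in the libraries labelled CDH11-/- and 6.53 ± 0.541 in CDH11+/+ libraries (SD, n = 4 per label). Wnt10a followed at 7.07 ± 1.18 and 6.41 ± 1.84 CPM per kb, and its spread overlaps that of Wnt7b. Together with Wnt4 and Wnt2 they were the top of the ligand family: Wnt7b made up 25.3% of the summed ligand level per length in the libraries labelled CDH11-/- and 23.3% in CDH11+/+ libraries, and Wnt10a 21.9% and 22.4%. Wnt5a, the standard ligand of the branch that works without β-catenin, lay lower at 2.44 ± 0.261 and 2.56 ± 0.151 CPM per kb. Summed over all 19, the ligand level was 32.2 ± 2.55 CPM per kb in the libraries labelled CDH11-/- and 28.2 ± 3.39 in CDH11+/+ libraries, and the groups overlapped.

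Of the 12 ligands tested, 7 had positive and 5 negative log2 fold changes, from -0.46 for Wnt10b to 0.87 for Wnt7a, with a median of 0.17. Wnt7b was at 47.1, 41.6, 38.1 and 33.2 CPM in replicates 1 to 4 labelled CDH11-/-, against 34.9, 33.4, 28.9 and 30.9 CPM in CDH11+/+ libraries. The lowest of the first group lay below the 2 highest of the second. Its log2 fold change was 0.32 with an SE of 0.11 (adjusted p = 0.204, edgeR). The collecting duct is a known site of Wnt7b, and whether other cells made it here was not examined. Summed collecting duct markers (3 of 6 positive) were at 521.7 to 653.3 CPM in the libraries labelled CDH11-/- and 595.8 to 664.6 CPM in CDH11+/+ libraries. Summed macrophage markers (4 of 5 positive) were at 1008 to 1229 CPM and 884 to 1344 CPM. The part of either cell type in the Wnt7b values was not tested.

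Wnt9a, a ligand best known from joint and skeletal development, was at 10.4, 6.92, 9.34 and 8.48 CPM in the libraries labelled CDH11-/-, against 8.49, 5.62, 6.65 and 5.78 CPM in CDH11+/+ libraries. Here CDH11+/+ replicate 1 lay among the libraries of the other label, and the log2 fold change was 0.42 with an SE of 0.17 (adjusted p = 0.306, edgeR). Wnt7a had the largest fold but few counts, 82 in all under the label CDH11-/- and 35 under CDH11+/+. Its log2 fold change of 0.87 with an SE of 0.40 (adjusted p = 0.350, edgeR) thus rests on a mean of 1.27 ± 0.412 CPM and 0.730 ± 0.392 CPM (SD, n = 4 per label). The other tested ligands were Wnt16 (0.28 ± 0.20), Wnt2 (0.27 ± 0.16), Wnt4 (0.18 ± 0.14), Wnt10a (0.15 ± 0.20), Wnt5a (-0.07 ± 0.10), Wnt9b (-0.12 ± 0.19), Wnt5b and Wnt11 (above) and Wnt10b (-0.46 ± 0.37, log2 fold change and SE).

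A further 7 ligands were too low to test. Wnt6 had 7 to 22 counts per library labelled CDH11-/- and 3 to 14 per library labelled CDH11+/+. Wnt2b had 4 to 11 and 3 to 5 counts, Wnt3 had 4 to 10 and 0 to 9, and Wnt8b had 0 to 11 and 3 to 6. Wnt3a, a strong activator of β-catenin, had 3 and 2 counts in CDH11-/- replicates 1 and 2 and 0 in the other 6 libraries. Wnt1 had at most 3 counts in any library, and Wnt8a a single count in all. A count of 0 allows up to 3 counts per library, or 0.158 to 0.277 CPM at these depths, which covers counting error only.

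**Figure D2:**
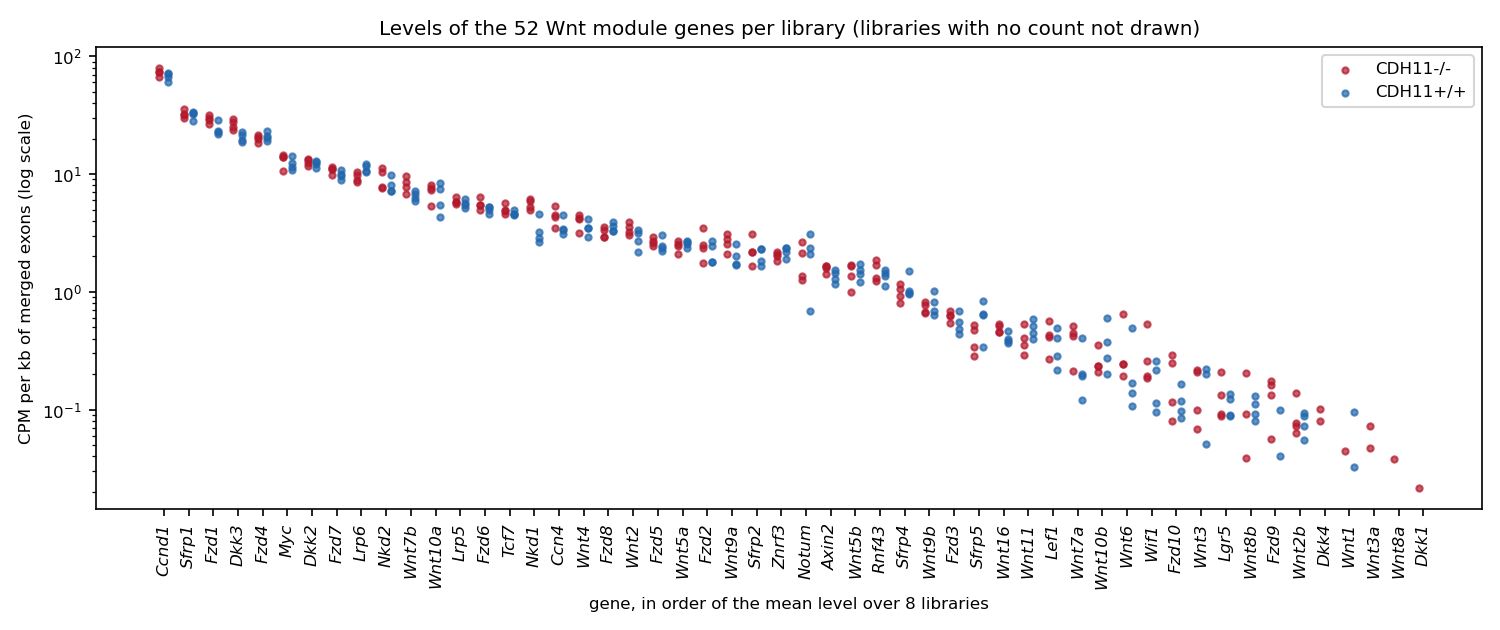
Level of each of the 52 genes in each library, as CPM per kb of merged exons on a log scale, ordered by the mean over the 8 libraries; red points are libraries labelled CDH11-/- and blue points those labelled CDH11+/+, and libraries with no count are not drawn. Ccnd1 is at the top, Sfrp1, Fzd1, Dkk3 and Fzd4 follow, and the untested genes lie at the right end together with Lgr5.

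The receptor side was dominated by a few genes. Fzd1, a receptor of the canonical branch, and Fzd4, which is prominent in blood vessels and also serves the ligand Norrin, made up 38.9% and 26.7% of the summed Frizzled level per length in the libraries labelled CDH11-/-, and 35.1% and 30.3% in CDH11+/+ libraries. Fzd7 followed with 14.5% and 14.3%. Of the 10 receptors and co-receptors tested, 7 were positive and 3 negative, with a median log2 fold change of 0.11.

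Fzd1 was at 132, 112, 124 and 119.8 CPM in the libraries labelled CDH11-/-, against 120.2, 91.4, 98.3 and 96.2 CPM in CDH11+/+ libraries. All 4 libraries labelled CDH11-/- exceeded CDH11+/+ replicates 2 to 4, while CDH11+/+ replicate 1 lay in their midst. The log2 fold change was 0.27 with an SE of 0.09 (adjusted p = 0.206, edgeR); without CDH11+/+ replicate 1 it was 0.37 and passed (edgeR adjusted p = 0.0140), as it did in limma-voom (adjusted p = 0.0349), and adjusted p ran from 0.0140 to 0.498 over 19 alternative fits.

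Lrp6, the co-receptor most tightly required for canonical signalling in mouse development, had the opposite sign. It was at 118, 142, 135 and 121 CPM in the libraries labelled CDH11-/-, against 146, 166, 159.9 and 143 CPM in CDH11+/+ libraries, with no overlap between the groups. Its log2 fold change was -0.25 with an SE of 0.08 (adjusted p = 0.174, edgeR), and it passed in 0 of 19 alternative fits (adjusted p 0.0728 to 0.549). In the authors' normalized values the difference was smaller, -0.15 on the log2 scale with a pseudocount of 1. There the groups overlapped, at 1648 to 2081 in the libraries labelled CDH11-/- and 1797 to 2206 in CDH11+/+ libraries. Its partner Lrp5, which can stand in for Lrp6 in part, was at 57.4 ± 3.10 CPM in the libraries labelled CDH11-/- and 54.6 ± 4.28 CPM in CDH11+/+ libraries (SD, n = 4 per label), a log2 fold change of 0.07 with an SE of 0.07 (adjusted p = 0.692, edgeR).

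Fzd3 (0.22 ± 0.16), Fzd2 (0.22 ± 0.21), Fzd6 (0.15 ± 0.09), Fzd7 (0.14 ± 0.08) and Fzd5 (0.08 ± 0.11) were positive and Fzd4 (-0.06 ± 0.07) and Fzd8 (-0.16 ± 0.10) negative (log2 fold change and SE). Their adjusted p ran from 0.424 to 0.779 in edgeR. Fzd10, with 4 to 18 counts in the libraries labelled CDH11-/- and 3 to 7 in CDH11+/+ libraries, and Fzd9, with 2 to 7 and 0 to 3 counts, were too low to test.

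**Figure D3:**
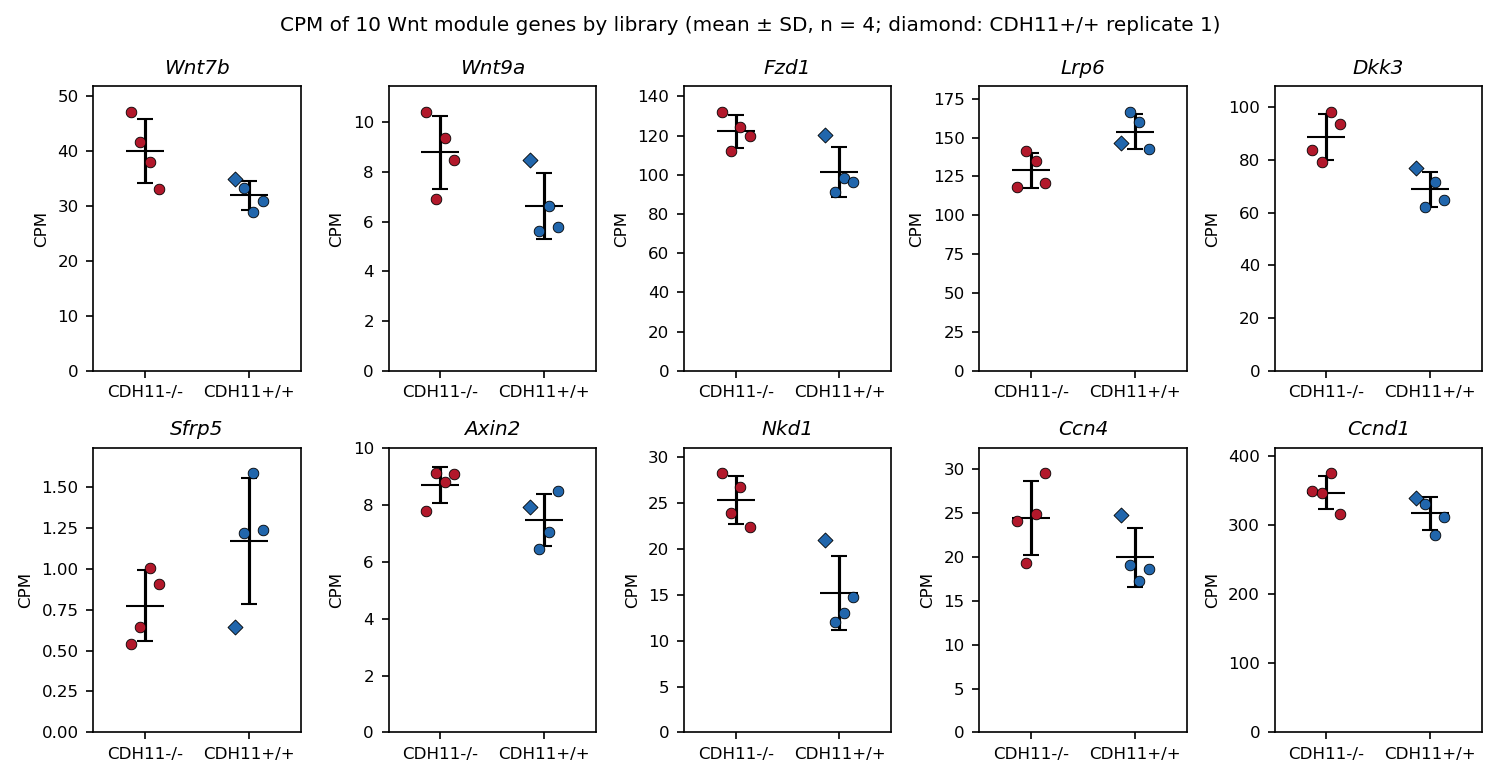
CPM of 10 genes in each library, CDH11-/- in red on the left and CDH11+/+ in blue on the right of each panel, with the mean and SD of 4 libraries; the diamond is CDH11+/+ replicate 1. The groups do not overlap for Nkd1, Dkk3 and Lrp6, and the diamond is the highest of its group in 7 of the 10 panels; it lies within the range of the libraries labelled CDH11-/- in every panel but those of Nkd1, Dkk3 and Lrp6.

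Among the secreted inhibitors, Dkk3 had the smallest p. Dkk3 is a divergent Dickkopf protein that stressed tubule cells are known to secrete. It was at 83.8, 79.3, 98.2 and 93.6 CPM in the libraries labelled CDH11-/-, against 77.0, 62.3, 71.4 and 64.8 CPM in CDH11+/+ libraries. The groups did not overlap, and CDH11+/+ replicate 1 came closest to the others. The means were 88.7 ± 8.70 CPM and 68.9 ± 6.63 CPM (SD, n = 4 per label), a log2 fold change of 0.37 with an SE of 0.09 (adjusted p = 0.0871, edgeR). It passed in DESeq2 (adjusted p = 0.0135), in limma-voom (adjusted p = 0.0240), with 1 surrogate variable (edgeR adjusted p = 0.0255) and without CDH11+/+ replicate 1 (edgeR adjusted p = 0.0169). Over all 19 fits its adjusted p ran from 0.0135 to 0.257, and its log2 fold change from 0.31 to 0.43. The gene lies on chromosome 7, 112116017 to 112159057 of GRCm38, on the minus strand, and overlaps no other annotated gene. Summed markers of injured tubule (2 of 5 positive) were at 904 to 1109.7 CPM in the libraries labelled CDH11-/- and 1133 to 1235 CPM in CDH11+/+ libraries, opposite in direction to Dkk3, and their part in its values was not tested.

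Dkk3 and Dkk2 made up nearly all of the Dickkopf level per length. Dkk3 held 67.4% ± 2.85 of it in the libraries labelled CDH11-/- and 62.6% ± 2.18 in CDH11+/+ libraries (SD, n = 4 per label), and Dkk2 the rest to within a fraction of a percent. Dkk2 itself was at 47.0 ± 2.94 CPM and 45.3 ± 2.75 CPM (log2 fold change 0.05 ± 0.07, SE). Dkk1, the classical inhibitor that binds LRP6, had 1 count over all 8 libraries, and Dkk4 had 4 counts in all under the label CDH11-/- and 0 under CDH11+/+.

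Sfrp1, which binds Wnt ligands and keeps them from Frizzled, was the highest per length of the module's own 10 secreted inhibitors. Of the level per length summed over the module's 4 Sfrp genes, it took 89.7% in the libraries labelled CDH11-/- and 89.4% in CDH11+/+ libraries. That sum leaves out Frzb, also known as Sfrp3, which lies outside the module by its name. Over the 8 libraries Frzb averaged 13.5 CPM per kb, against 32.1 for Sfrp1. Sfrp1 was at 141 ± 10.5 CPM and 139 ± 10.9 CPM (SD, n = 4 per label), a log2 fold change of 0.02 with an SE of 0.08 (adjusted p = 0.942, edgeR). Sfrp5 was at 0.537, 0.646, 1.003 and 0.909 CPM in the libraries labelled CDH11-/-, against 0.646, 1.22, 1.58 and 1.23 CPM in CDH11+/+ libraries. The values rest on 49 and 59 counts in all, and the log2 fold change was -0.60 with an SE of 0.35 (adjusted p = 0.467, edgeR). Sfrp2 (0.19 ± 0.21), Sfrp4 (-0.15 ± 0.20) and Notum (-0.16 ± 0.38, log2 fold change and SE), an enzyme that strips the lipid from Wnt proteins, did not pass. Notum spread widely within both groups, from 3.03 to 6.40 CPM in the libraries labelled CDH11-/- and from 1.66 to 7.52 CPM in CDH11+/+ libraries. Wif1, an inhibitor that binds Wnt ligands directly, was too low to test, with 7 to 17 and 3 to 8 counts.

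Of the feedback regulators, Nkd1 had the largest log2 fold change, second among the 40 tested genes to Wnt7a. Nkd1 is the mouse form of Naked cuticle, a protein that binds Dishevelled and damps the signal that induces it. It was at 28.2, 23.9, 26.7 and 22.4 CPM in the libraries labelled CDH11-/-, against 20.9, 12.0, 13.0 and 14.7 CPM in CDH11+/+ libraries. All 4 of the first group lay above all 4 of the second, with CDH11+/+ replicate 1 just below the lowest of them. The means were 25.3 ± 2.63 CPM and 15.2 ± 4.02 CPM (SD, n = 4 per label), a log2 fold change of 0.75 with an SE of 0.16 (adjusted p = 0.0645, edgeR).

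The Nkd1 difference passed the test in 4 of 19 alternative fits: DESeq2 (adjusted p = 0.00207), limma-voom (adjusted p = 0.00731), 1 surrogate variable (edgeR adjusted p = 0.00820) and without CDH11+/+ replicate 1 (log2 fold change 0.95, edgeR adjusted p = 0.00273). Over the 19 fits the log2 fold change ran from 0.63 to 0.95 and the adjusted p from 0.00207 to 0.203. In the authors' normalized values Nkd1 was at 336 ± 12.5 in the libraries labelled CDH11-/- and 219 ± 64.7 in CDH11+/+ libraries (SD, n = 4 per label), or 0.66 on the log2 scale with a pseudocount of 1. Nkd1 (ENSMUSG00000031661) is a plus-strand gene of chromosome 8 (GRCm38, 88521354 to 88594884), 14.0 Mb from Cdh11. The gene model Gm45496 overlaps it on the same strand and was not analysed here.

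Axin2, the scaffold of the β-catenin destruction complex and itself a target, was at 7.79, 9.12, 8.82 and 9.09 CPM in the libraries labelled CDH11-/-, against 7.94, 6.46, 7.04 and 8.48 CPM in CDH11+/+ libraries. In 3 of the 4 libraries labelled CDH11-/- it exceeded every library of the other label, and the log2 fold change was 0.22 with an SE of 0.13 (adjusted p = 0.467, edgeR). Nkd2, the paralog of Nkd1, was at 44.8 ± 8.94 CPM in the libraries labelled CDH11-/- and 38.9 ± 5.85 CPM in CDH11+/+ libraries (log2 fold change 0.20 ± 0.15, SE). Per length, Nkd2 stood above Nkd1, at 9.29 ± 1.85 against 5.55 ± 0.578 CPM per kb in the libraries labelled CDH11-/- (SD, n = 4 per label). Rnf43 (0.17 ± 0.16) and Znrf3 (-0.10 ± 0.10), ubiquitin ligases that remove Frizzled from the cell surface, had opposite signs, and Lgr5, an R-spondin receptor and stem cell marker, was near the filter at 1.34 ± 0.575 CPM and 1.12 ± 0.242 CPM (log2 fold change 0.24 ± 0.35, SE).

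All 5 transcription factors and other targets were positive, with log2 fold changes of 0.11 to 0.29 and 0 past the test in edgeR, DESeq2 or limma-voom (0 at an unadjusted p under 0.05). Ccn4, a matricellular protein first found as a Wnt-induced gene, was at 24.1, 19.3, 24.9 and 29.5 CPM in the libraries labelled CDH11-/-, against 24.8, 19.1, 17.2 and 18.7 CPM in CDH11+/+ libraries. The groups overlapped through CDH11-/- replicate 2 and CDH11+/+ replicate 1, and the log2 fold change was 0.29 with an SE of 0.14 (adjusted p = 0.378, edgeR). Ccnd1, the cyclin that drives entry into S phase and the most abundant gene of the module, was at 349, 347, 375 and 316 CPM in the libraries labelled CDH11-/-, against 339, 331, 286 and 312 CPM in CDH11+/+ libraries (log2 fold change 0.13 ± 0.07, SE, edgeR adjusted p = 0.454). In 3 of the 4 libraries labelled CDH11-/- it exceeded every library of the other label.

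Myc, a growth-promoting transcription factor, was at 36.0 ± 4.74 CPM in the libraries labelled CDH11-/- and 33.2 ± 3.90 CPM in CDH11+/+ libraries (SD, n = 4 per label; log2 fold change 0.12 ± 0.11, SE). Tcf7 (0.11 ± 0.10) and Lef1 (0.26 ± 0.29, log2 fold change and SE) encode the DNA-binding partners of β-catenin and are also high in T cells. Summed T cell markers ranged from 60.5 to 104.6 CPM in the libraries labelled CDH11-/- and from 59.4 to 75.0 CPM in CDH11+/+ libraries, with 4 of 5 markers positive. The highest sum and the highest values of Tcf7 (15.0 CPM) and Lef1 (5.00 CPM) were all in CDH11-/- replicate 4. Other libraries did not follow this order for Lef1. Its next highest value was in CDH11+/+ replicate 1 (4.34 CPM), where the T cell sum was 62.6 CPM. In the authors' normalized values Lef1 was highest in CDH11+/+ replicate 2 (76.5), the library of the lowest T cell sum. The part of T cells in these values was not tested.

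**Figure D4:**
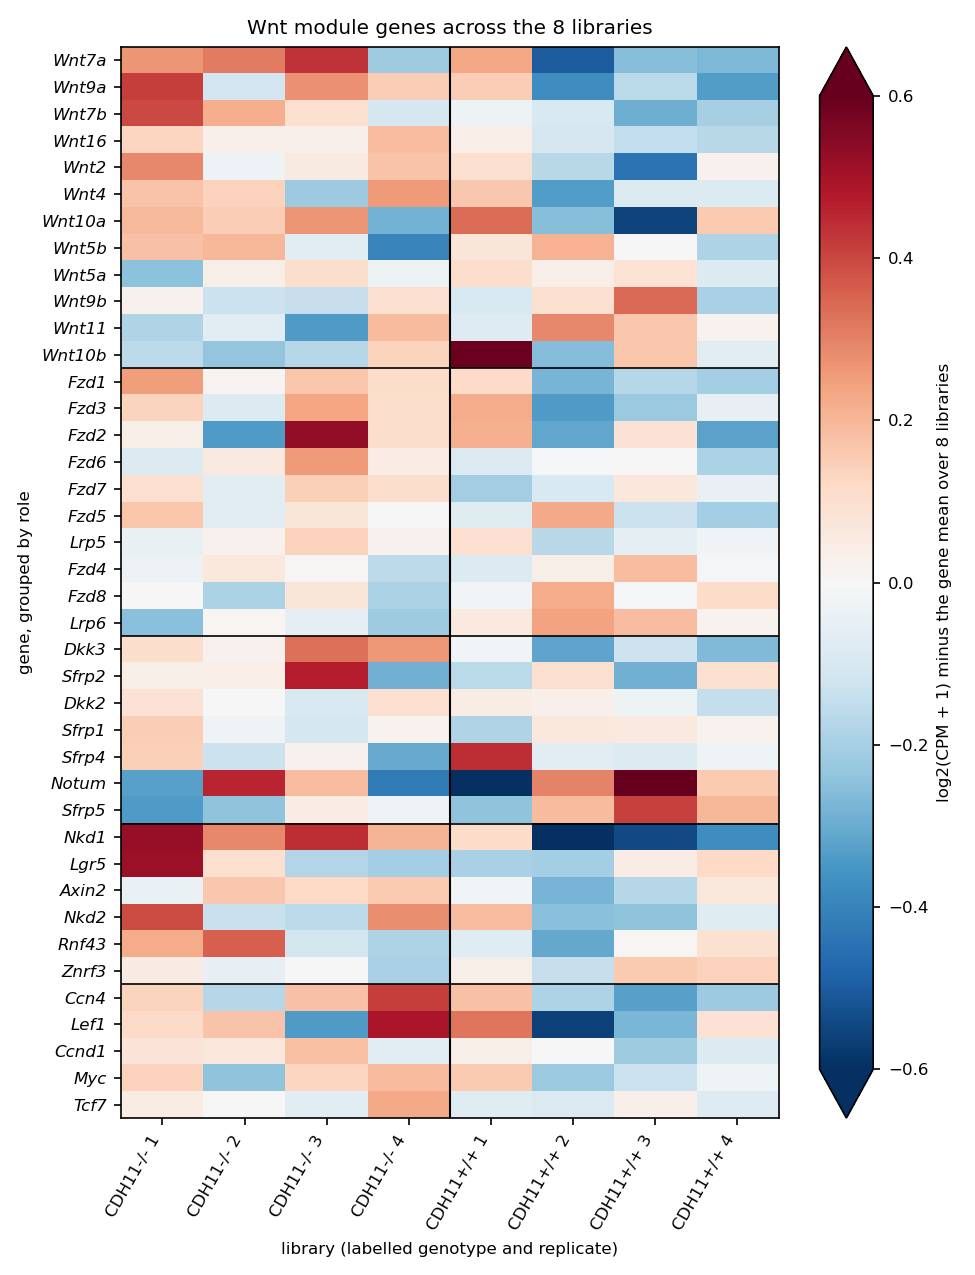
Each tested gene (row, grouped by role) in each library (column, CDH11-/- left of the line and CDH11+/+ right of it), as log2(CPM + 1) minus the mean of that gene over the 8 libraries. The row of Nkd1 is red in all 4 libraries labelled CDH11-/- and blue in CDH11+/+ replicates 2 to 4, and CDH11+/+ replicate 1 is above the other 3 libraries of its label in 22 of the 40 rows.

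Within the libraries labelled CDH11+/+, replicate 1 lay above the other 3 in 22 of the 40 tested genes, where replicates 2, 3 and 4 did so in 7, 8 and 3. In 25 of the 40, replicate 1 was nearer to the mean of the libraries labelled CDH11-/- than to the mean of the other libraries of its own label, while this held for replicates 2, 3 and 4 in 11, 12 and 15 genes. Cell type markers also varied between these libraries. Summed proximal tubule markers (6 of 6 negative) were at 1106 to 1973 CPM in the libraries labelled CDH11-/- and 1593 to 3537 CPM in CDH11+/+ libraries, the lowest of the second group being replicate 1. Fibroblast markers (5 of 6 positive) summed to 688 to 949.9 CPM and 642 to 875 CPM, endothelial markers (5 of 5 positive) to 246 to 270.2 CPM and 187 to 251 CPM, and podocyte markers (5 of 5 positive) to 470.0 to 577 CPM and 338 to 480.4 CPM. None of these 22 markers passed in edgeR, while 14 had an unadjusted p under 0.05 (14.4% of all genes did). These are not all the marker lists drawn up. The others gave 2 of 5 tested for injured tubule, 1 of 4 for thick ascending limb and distal tubule, 1 of 6 for collecting duct and 1 of 5 for T cells. B cell, macrophage, urothelium and adrenal markers gave 0. In DESeq2 2 fibroblast, 1 endothelial, 1 podocyte and 4 proximal tubule markers passed (2.79% of all genes), and in limma-voom 2, 3, 3 and 4 (4.32% of all genes). Of the other lists only injured tubule had a marker past either test, 1 in each. Their part in the values of the Wnt genes was not tested.

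**Figure D5:**
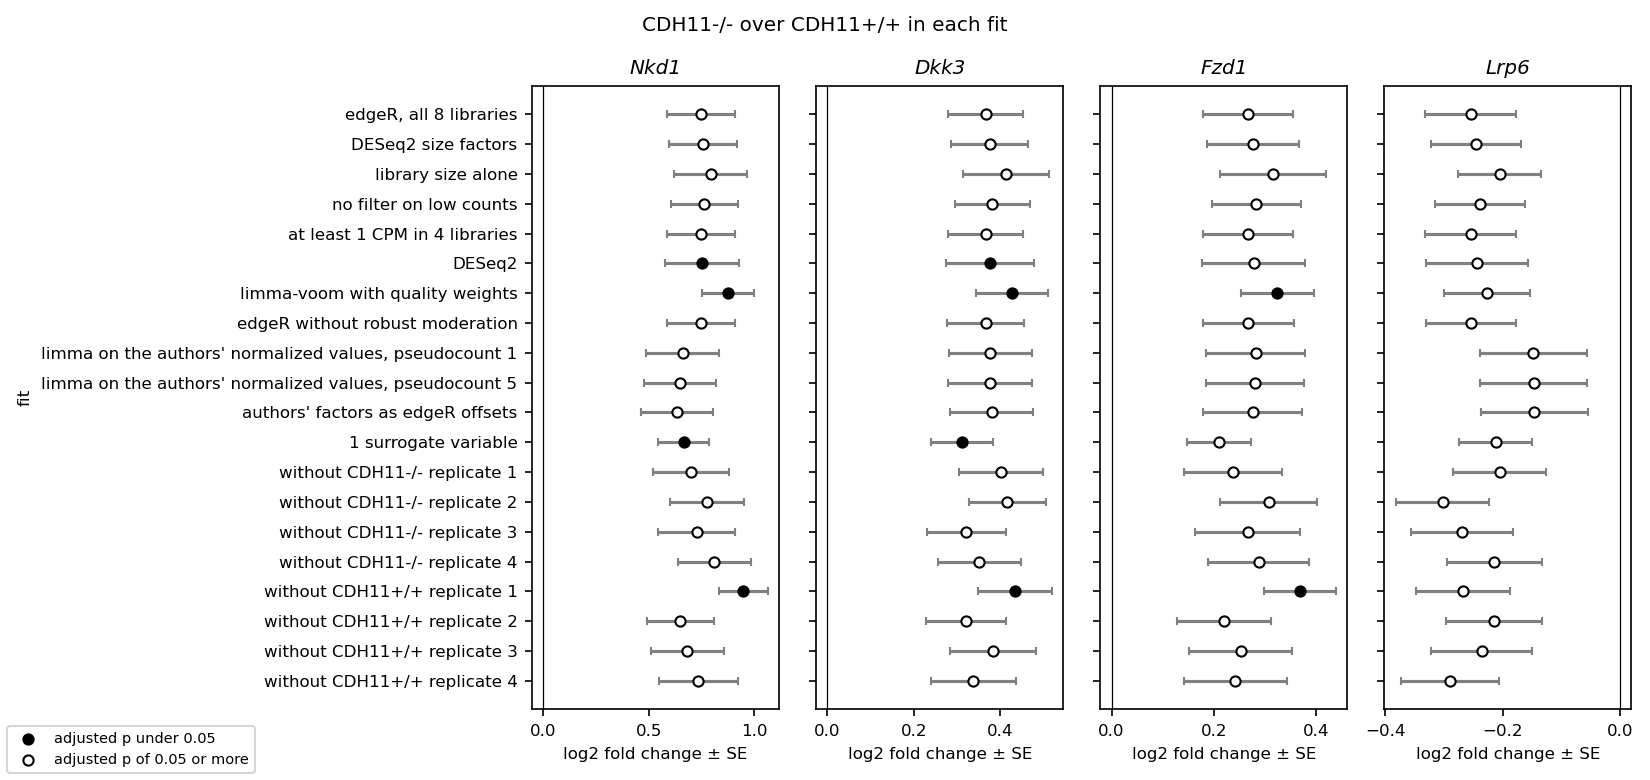
Log2 fold change (CDH11-/- over CDH11+/+, bars ± 1 SE) of Nkd1, Dkk3, Fzd1 and Lrp6 in edgeR on all 8 libraries and in 19 alternative fits; filled points have an adjusted p under 0.05. No fit changes the sign of any of the 4 genes, the Nkd1 values run from 0.63 to 0.95, and Lrp6 has no filled point.

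The rest of the pathway was read from 87 further genes, of which 77 were tested and 2 passed in edgeR, 1 higher and 1 lower (background 0.36% higher and 0.366% lower). DESeq2 called 5 of them and limma-voom 9, beside 2.79% and 4.32% of all genes. Positive log2 fold changes numbered 44 and negative ones 33, and the median was 0.04. Both genes that passed are on the list of other published targets. There 13 of 16 tested genes were positive (47.6% of all genes were), and the median log2 fold change was 0.20. An unadjusted p under 0.05 was found in 7 (43.8%, beside 14.4% of all genes), 5 of them higher and 2 lower. DESeq2 called 3 of the 16 and limma-voom 4. Ccn1, a matricellular gene that is also a standard target of YAP, rose to 211 ± 28.8 CPM in the libraries labelled CDH11-/-, against 112 ± 12.1 CPM in CDH11+/+ libraries (SD, n = 4 per label), a log2 fold change of 0.91 with an SE of 0.11 (adjusted p = 0.00536, edgeR), and passed in 19 of 19 alternative fits. Mmp7, which encodes matrilysin and is known as a β-catenin target of injured tubules, fell to 4.16 ± 1.64 CPM, against 10.5 ± 1.73 CPM in CDH11+/+ libraries (SD, n = 4 per label; log2 fold change -1.36 ± 0.23, SE, edgeR adjusted p = 0.0310), and passed in 12 of 19. The Mmp7 call was lost without CDH11-/- replicate 1, 2 or 3 or CDH11+/+ replicate 2 or 4 (edgeR adjusted p 0.0659 to 0.0987) and in limma on the authors' values (adjusted p = 0.0515 with a pseudocount of 1). Fst, which encodes the activin-binding protein follistatin, was at 157 ± 15.8 CPM in the libraries labelled CDH11-/- and 95.3 ± 20.97 CPM in CDH11+/+ libraries (SD, n = 4 per label), with no overlap. Its log2 fold change was 0.72 with an SE of 0.16 (adjusted p = 0.0847, edgeR), and it passed in 4 of 19 alternative fits, among them DESeq2 (adjusted p = 0.000301), limma-voom (adjusted p = 0.0189) and edgeR without CDH11+/+ replicate 1 (adjusted p = 0.0295).

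In the core relay, 0 of 21 genes of the cytoplasmic relay and destruction complex passed in edgeR (unadjusted p under 0.05 in 2; DESeq2 called 0 and limma-voom 1), and 9 of the 21 were positive. Of 14 nuclear partners 0 passed in edgeR, DESeq2 or limma-voom (2 at an unadjusted p under 0.05), and 7 were positive. The smallest p belonged to Csnk1e in the first list and Tcf7l1 in the second: Csnk1e, a casein kinase, had a log2 fold change of 0.24 ± 0.08, and Tcf7l1, a TCF factor that mostly represses, one of 0.40 ± 0.12 (SE). Among the other extracellular inhibitors, Igfbp4, an IGF-binding protein that also binds LRP6, was lower without overlap, at 433 ± 52.9 CPM in the libraries labelled CDH11-/- and 591 ± 70.9 CPM in CDH11+/+ libraries (SD, n = 4 per label; log2 fold change -0.45 ± 0.11, SE, edgeR adjusted p = 0.0847). It passed in 4 of 19 alternative fits: DESeq2 (adjusted p = 0.00704), limma-voom (adjusted p = 0.0268), 1 surrogate variable (edgeR adjusted p = 0.0130) and without CDH11+/+ replicate 1 (edgeR adjusted p = 0.0191). Apcdd1, a membrane-bound inhibitor, was higher without overlap, at 7.55 ± 0.273 CPM in the libraries labelled CDH11-/- and 5.13 ± 1.002 CPM in CDH11+/+ libraries (SD, n = 4 per label; log2 fold change 0.57 ± 0.15, SE, edgeR adjusted p = 0.130), and passed in limma-voom (adjusted p = 0.0303) and without CDH11+/+ replicate 1 (edgeR adjusted p = 0.0328). Of the 7 tested genes on that list 4 had an unadjusted p under 0.05 (14.4% of all genes did), 2 higher and 2 lower. Besides Igfbp4 and Apcdd1 these were Trabd2b and Frzb, each with overlap. Trabd2b was lower (log2 fold change -0.37 ± 0.10, SE, edgeR adjusted p = 0.110). It passed in 4 of 19 alternative fits, among them DESeq2 (adjusted p = 0.0322) and limma-voom (adjusted p = 0.0305). Frzb was higher (0.36 ± 0.13, edgeR adjusted p = 0.243) and passed in 3 of 19, among them limma-voom (adjusted p = 0.0357). For R-spondins and their other receptors, Wnt secretion, other receptors and planar polarity, the genes of smallest p were Lgr4 (-0.23 ± 0.11), Porcn (0.34 ± 0.19), Ptk7 (0.16 ± 0.07) and Daam2 (0.26 ± 0.10, log2 fold change and SE), with edgeR adjusted p of 0.271 to 0.443.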

How the data were processed

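The authors deposited whole-number counts for each gene identifier, and beside them a signal, the same counts after normalization. The submitters' processing notes name mm10, DRAGEN and DESeq2; the sources used here give no versions and no counting method. Per the labels' protocols the library kit keeps the strand, but whether the counting used it is not given, so reads of overlapping genes (19 of the 52 genes have one) may not be told apart. In the authors' normalized signal the scaling is not 1 factor per library: in 14733 well-counted genes (10 or more counts throughout), 33.1% of factors lie within 1% of the library's median factor. There were 0 columns of other samples.

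Names, coordinates and merged exon lengths came from GENCODE M21 (GRCm38, the assembly mm10 names). The test was edgeR 4.0.16 quasi-likelihood (R 4.3.3) with TMM scaling, the default low-count filter, robust moderation and no term beside the labelled genotype; 15852 genes were tested, and p-values were adjusted over all of them at 0.05. An SE is the absolute log2 fold change over the square root of F. The common biological coefficient of variation was 13.5%, to which counting error adds most in genes of few counts. The labels name no litter or batch and do not say that each library is a separate mouse, so p-values measure the spread between these libraries; replicates are numbered in deposit order. Alternatives were DESeq2 1.42.0 (an adjusted p it gives as NA stayed NA), limma-voom (limma 3.58.1), 1 surrogate variable (sva 3.50.0), other scalings, filters and thresholds, the authors' values (limma on log2 with a pseudocount of 1 or 5) or factors, and leaving out each library. The edgeR, DESeq2 and limma-voom fits were also run on simulated counts. The planted differences there were larger than any of the main edgeR fit in the tested Wnt genes, and no library stood apart. That run therefore cannot show how well differences of the size seen here are found.

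The genes and lists were chosen with earlier results of these data known. Full values go to genes past the threshold in edgeR, DESeq2 or limma-voom and to the 2 of smallest p in each of 5 roles; a planned comparison of protein sequences was not run, for want of a protein table. Wnt7a, Lrp5, Sfrp1, Notum, Myc, Tcf7, Lef1, Fst, Apcdd1, Trabd2b and Frzb were described further after their values were seen.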

Additional observations from a re-analysis of the deposited data

Results flagged for a closer look

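In 3 of 82 groups of 4 libraries checked, 1 library lay far from the other 3 by Dixon's criterion, which chance meets in about 1 of 20 groups. Sfrp4, a secreted inhibitor, was at 6.27 CPM in CDH11+/+ replicate 1, where the other libraries of that label lay between 4.03 and 4.24 CPM. Myc was at 29.0 CPM in CDH11-/- replicate 2, where the other libraries of that label lay between 37.6 and 39.4 CPM. Tcf7 was at 13.0 CPM in CDH11+/+ replicate 3, where the others lay between 11.9 and 12.0 CPM.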

How the results depend on the processing

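Over 19 alternative fits and a threshold of 0.1, 787 of 799 values of single Wnt genes kept their side of the threshold, and 12 newly passed it, all of Nkd1, Dkk3 or Fzd1; 8 genes changed sign in at least 1 fit, none of which had an unadjusted p under 0.05 in edgeR. The median log2 fold change of the tested genes stayed between 0.10 and 0.20. Its change from the main edgeR fit was in each case smaller than the spread of these genes' median between libraries of the same label (SD 0.0657). The count of these genes called higher, 0 in edgeR, became 2 in DESeq2, with 1 surrogate variable and at a threshold of 0.1, 3 in limma-voom, and 0 to 3 when leaving out 1 library, the 3 without CDH11+/+ replicate 1; 0 were called lower throughout. Over all genes the counts higher and lower, 57 and 58, became 242 and 273 (DESeq2), 323 and 362 (limma-voom), 27 and 27 (limma on the authors' values, pseudocount 1 or 5), 32 and 33 (the authors' factors as offsets), 248 and 266 (1 surrogate variable) and 150 and 162 (threshold 0.1), and ran from 13 to 492 and from 13 to 501 when leaving out 1 library. The further pathway genes, 1 higher and 1 lower, became 2 and 3 (DESeq2), 6 and 3 (limma-voom), 1 and 0 (the authors' values), 3 and 4 (1 surrogate variable) and 2 and 2 (threshold 0.1), and 1 to 6 higher and 0 to 3 lower when leaving out 1 library. The Cdh11 call ended at 0.26 (log2, pseudocount 1 or 5) in the authors' values and 0.24 with their factors, and its log2 fold change ran from 0.64 to 0.80 when leaving out 1 library, with the call lost without CDH11-/- replicate 3 or 4 or CDH11+/+ replicate 2, 3 or 4 (adjusted p 0.0529 to 0.108, edgeR). The cause of these changes was not tested. No paired analysis was possible because the labels carry no replicate numbers. Few counts limit Wnt7a, Sfrp5, Wnt10b and Lgr5.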
